A study of Mus musculus with 6 samples.

Results

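The 10 BCL2 family genes described here are the core of the mitochondrial pathway of apoptosis: the guardians Bcl2, Bcl2l1 and Mcl1, the pore formers Bax and Bak1, and the BH3-only genes Bcl2l11, Bbc3, Pmaip1, Bid and Bad. They were chosen by gene symbol from the 29955 genes of the deposited expression table, all 10 were found, and all 10 passed the filter on low counts. Messenger RNA was sequenced from mouse embryonic fibroblasts (MEFs), primary connective tissue cells grown from embryos, as 3 Rnf40+/+ and 3 Rnf40-/- libraries. Rnf40 encodes a ubiquitin ligase that, with RNF20, attaches 1 ubiquitin to histone H2B in transcribed genes, and the comparison asks how mRNA levels differ once that enzyme is lost. The methods describe MEFs from Rnf40 loxP/loxP embryos that carried a Rosa26-CreERT2 transgene, a ubiquitously expressed Cre recombinase that tamoxifen switches on. Rnf40-/- cells were made by adding 4-hydroxytamoxifen (4-OHT) at 250 nM for 5 days, followed by 3 days of growth without it, and RNA of both genotypes was taken at passage 3. Whether the Rnf40+/+ libraries received 4-OHT or carried the transgene is not stated in the sources used here, so loss of Rnf40 cannot be told apart from exposure to 4-OHT or active Cre. Nothing states that the 3 libraries of a genotype came from separate embryos or cultures, so the p-values measure the spread between these libraries, which may be technical.

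Proteins of the BCL2 family decide whether the outer membrane of the mitochondrion stays closed. The pore formers BAX and BAK assemble into pores that release cytochrome c, the guardians hold them in check, and the BH3-only proteins, which carry stress signals, occupy the guardians or activate the pore formers directly. The cytochrome c released assembles the apoptosome with APAF1, which activates caspase-9. Fibroblasts express both pore formers, and several of the genes, Bax, Bbc3 and Pmaip1 among them, are known targets of the transcription factor p53.

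What the family shares in sequence is the BH3 segment, the short helix through which its members bind each other. Its coding sequence is shown for 9 members as 45 bases read 5′ to 3′ on the coding strand, taken from the GENCODE vM1 transcripts of mouse build NCBIM37, which is mm9. Capitals mark the codons of the conserved leucine and of the paired glycine and aspartate; in Bbc3 an alanine codon and in Bad a serine codon stands at the place of the glycine.
Bcl2: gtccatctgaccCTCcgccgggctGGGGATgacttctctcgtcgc
Bcl2l1: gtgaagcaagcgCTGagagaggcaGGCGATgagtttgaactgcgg
Mcl1: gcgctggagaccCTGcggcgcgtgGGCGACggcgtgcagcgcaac
Bax: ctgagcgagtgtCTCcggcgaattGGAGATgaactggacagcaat
Bak1: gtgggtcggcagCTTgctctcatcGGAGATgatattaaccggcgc
Bcl2l11: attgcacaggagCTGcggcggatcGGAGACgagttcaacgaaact
Bbc3: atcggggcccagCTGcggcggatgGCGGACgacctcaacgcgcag
Bid: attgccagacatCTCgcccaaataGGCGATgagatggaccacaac
Bad: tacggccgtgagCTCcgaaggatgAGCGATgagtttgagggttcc

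Each of the 9 segments lay within 1 coding exon. Those of the guardians were at chr1:108609146-108609190 in exon 1 of Bcl2 (minus strand), chr2:152655427-152655471 in exon 2 of Bcl2l1 (minus strand) and chr3:95463347-95463391 in exon 2 of Mcl1 (plus strand). Those of the pore formers were at chr7:52721361-52721405 in exon 3 of Bax and chr17:27159470-27159514 in exon 4 of Bak1, both on the minus strand. Those of the BH3-only genes were at chr2:127972874-127972918 in exon 3 of Bcl2l11, chr7:16899110-16899154 in exon 3 of Bbc3 and chr19:7025270-7025314 in exon 3 of Bad, all on the plus strand, and at chr6:120847301-120847345 in exon 4 of Bid on the minus strand. The core, a leucine, 3 residues of any kind, then glycine and aspartate, was present in 8 of the 10 proteins, and it is too short to define the family: 2722 of 21346 mouse proteins (12.8%), 1 per gene, hold it somewhere. Between pairs of members the number of identical bases ran from 16 of 45 to 28 of 45. Of 5 complete coding transcripts of Bcl2l11, 1 lacks the core, and counts summed over a gene cannot show which transcripts were present.

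Values are normalized counts, the reads of a gene divided by 1 size factor per library. The libraries held between 17053436 and 26344170 reads on genes, and a count of 3 reads corresponds to a normalized count between 2.40 and 3.58. The 10 members had between 205 and 6447 reads in every library, so none was near the limit of detection. Between libraries of 1 genotype the coefficient of variation of a member ran from 0.913% to 15.5%. Rnf40+/+ replicate 3 stood farthest from its group over all genes, and results that turn on it are given with and without it. Rnf40 itself, the check of the labels, was 1189.5 ± 91.2 (SD, n = 3) in Rnf40+/+ and 482 ± 39.9 (SD, n = 3) in Rnf40-/- libraries, 40.5% of the Rnf40+/+ mean. Its log2 fold change was −1.30 (SE 0.09, adjusted p = 4.25e-07, limma with Benjamini-Hochberg adjustment), although the deletion removes exons 3 and 4 alone and reads from the other exons are counted with them.

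All log2 fold changes below are Rnf40-/- over Rnf40+/+, on the log2(normalized count + 1) scale. Adjusted p-values come from limma with Benjamini-Hochberg adjustment over the 16378 genes that passed the filter, and rose and fell are used for an adjusted p under 0.05.

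Of the 10 members, 8 passed the threshold, 4 higher and 4 lower in Rnf40-/- libraries, while 47.4% of all genes tested passed it, 23.3% higher and 24.1% lower. Mcl1, Bcl2l11, Bbc3 and Bid rose, Bcl2l1, Bax, Bak1 and Pmaip1 fell, and Bcl2 and Bad did not pass. The changes were moderate: among the 8, the median absolute log2 fold change was 0.48 (range 0.22 to 0.62), against a median of 0.57 (quartiles 0.37 and 0.95) for all 7764 genes called. None of the 10 reached the classes of the study, set by a mean above 15, an unadjusted p under 0.05 and a log2 fold change beyond 1 in either direction, under any alternative run, edgeR and DESeq2 included; 4.25% of all genes tested met them as higher and 5.7% as lower. The 3 libraries of 1 genotype did not overlap those of the other for 8 of 10 members, as for 56.5% of all genes tested. The median log2 fold change of the 10 was −0.10, and that of all genes tested was −0.0035.

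**Figure D1:**
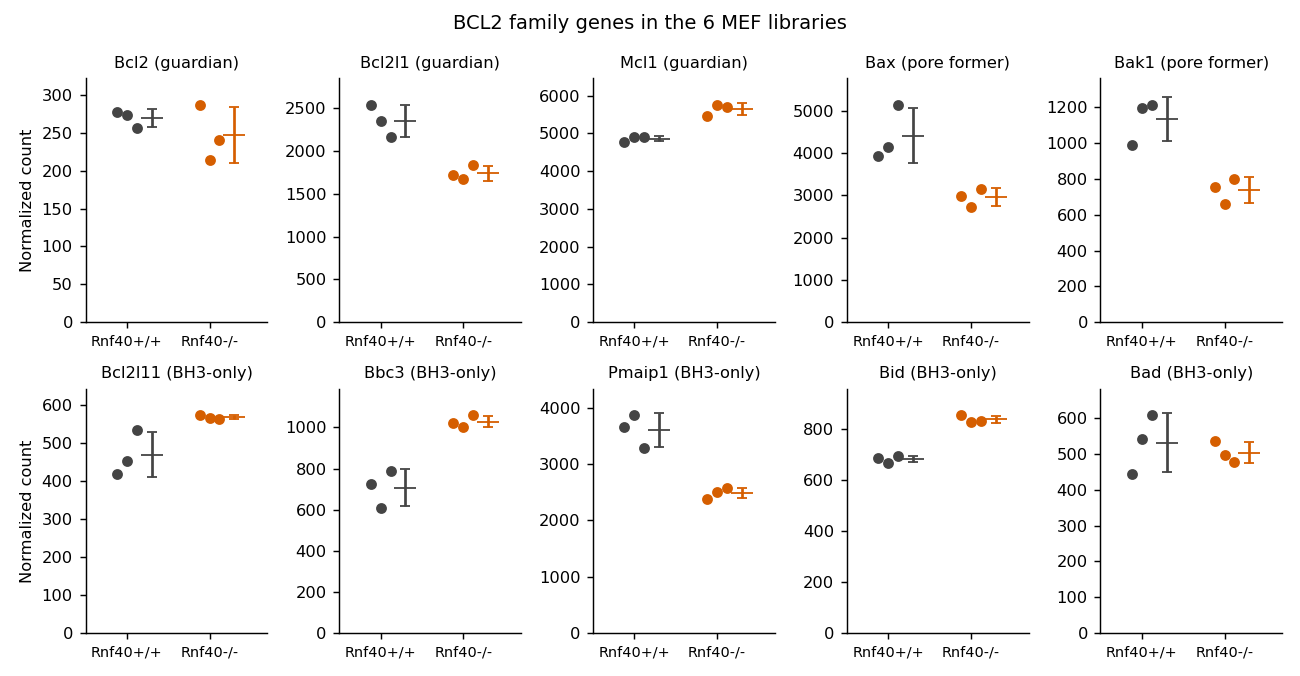
Normalized counts (y axes, linear, from 0) of the 10 BCL2 family genes in each of the 3 Rnf40+/+ and 3 Rnf40-/- libraries; points are libraries and bars are means with SD. The genotypes overlap for Bcl2 and Bad and are apart for the other 8 genes.

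The guardians moved in different directions. Mcl1 (ENSMUSG00000038612, chr3:95462643-95467099, plus strand) encodes a short-lived guardian that restrains BAK in particular. Its normalized count was 4781, 4903 and 4902 in Rnf40+/+ and 5462, 5765 and 5708 in Rnf40-/- libraries. All 3 Rnf40-/- libraries were above all 3 Rnf40+/+ libraries, with means of 4862 ± 70.3 and 5645 ± 161 (n = 3 each, SD). The log2 fold change was 0.22 (SE 0.06, 95% CI 0.09 to 0.34, adjusted p = 0.0097), the smallest of the 8 that passed.

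Bcl2l1 (ENSMUSG00000007659, chr2:152593052-152657464, minus strand) encodes BCL-XL, a guardian that binds BAX, BAK and several of the BH3-only proteins. It was 2543, 2351 and 2163 in Rnf40+/+ and 1716, 1667 and 1833 in Rnf40-/- libraries. The genotypes did not overlap, and the Rnf40-/- mean was 73.9% of the Rnf40+/+ mean. The means were 2352 ± 190 and 1738 ± 85.2 (n = 3 each, SD), with a log2 fold change of −0.43 (SE 0.07, 95% CI −0.60 to −0.27, adjusted p = 0.000519). The gene has 10 annotated transcripts, and the counts do not separate them, so any part of the shorter, pro-apoptotic form cannot be seen.

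Bcl2 (ENSMUSG00000057329, chr1:108434755-108610851, minus strand), the founding guardian, had the fewest reads of the 10. It was 278, 274 and 256 in Rnf40+/+ and 288, 214 and 241 in Rnf40-/- libraries. Rnf40-/- replicate 1 was above every Rnf40+/+ library and the other 2 were below them all. The means were 270 ± 11.7 and 247 ± 37.2 (n = 3 each, SD). The log2 fold change was −0.13 (SE 0.13, adjusted p = 0.411), with a 95% CI from −0.41 to 0.14. D630008O14Rik, on the opposite strand, shares 33103 bases of the span of Bcl2 and was not found in the deposited table. The part of shared reads in the count of Bcl2 was not tested.

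Both pore formers fell. Bax (ENSMUSG00000003873, chr7:52717065-52722268, minus strand) encodes the pore former that waits in the cytosol and moves to mitochondria. It was 3939, 4135 and 5148 in Rnf40+/+ and 2996, 2725 and 3153 in Rnf40-/- libraries. Rnf40+/+ replicate 3 was the highest, and the lowest Rnf40+/+ library was still above every Rnf40-/- library. The means were 4407 ± 649 and 2958 ± 216 (n = 3 each, SD), with a log2 fold change of −0.57 (SE 0.10, 95% CI −0.78 to −0.36, adjusted p = 0.000466). Without Rnf40+/+ replicate 3 the log2 fold change was −0.45 (adjusted p = 0.000166).

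Bak1 (ENSMUSG00000057789, chr17:27156755-27165954, minus strand) encodes the pore former that sits in the outer membrane from the start. It was 991, 1198 and 1216 in Rnf40+/+ and 754, 662 and 801 in Rnf40-/- libraries. No Rnf40-/- library reached the lowest Rnf40+/+ library. The means were 1135 ± 125 and 739 ± 70.7 (SD, n = 3 each), and the log2 fold change of −0.62 (SE 0.10, 95% CI −0.83 to −0.40, adjusted p = 0.000309) was the largest of the 10 in size. Ggnbp1, on the opposite strand, overlaps the whole of Bak1, and how the counting treated strand is not stated. Ggnbp1 had a normalized count of 13.4 ± 5.12 in Rnf40+/+ and 10.5 ± 7.39 in Rnf40-/- libraries (SD, n = 3 each), far below Bak1. The reads of Bax over those of Bak1 were 3.97, 3.45 and 4.23 in Rnf40+/+ and 3.98, 4.12 and 3.94 in Rnf40-/- libraries, so the pair kept overlapping ratios while both fell.

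Of the 5 BH3-only genes, 3 rose, 1 fell and 1 did not pass. Bbc3 (ENSMUSG00000002083, chr7:16894965-16903554, plus strand) encodes PUMA, which binds every guardian. It was 725, 608 and 786 in Rnf40+/+ and 1023, 1004 and 1059 in Rnf40-/- libraries. The genotypes were well apart, the lowest Rnf40-/- library being above the highest Rnf40+/+ library. The means were 706 ± 90.5 and 1029 ± 28.2 (n = 3 each, SD), with a log2 fold change of 0.55 (SE 0.09, 95% CI 0.34 to 0.76, adjusted p = 0.000505), the largest rise among the 10.

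Pmaip1 (ENSMUSG00000024521, chr18:66618258-66625204, plus strand) encodes NOXA, which binds MCL1. It was 3659, 3866 and 3282 in Rnf40+/+ and 2385, 2504 and 2572 in Rnf40-/- libraries. All 3 Rnf40-/- libraries were lower than all 3 Rnf40+/+ libraries. The means were 3602 ± 296 and 2487 ± 94.6 (n = 3 each, SD), with a log2 fold change of −0.53 (SE 0.07, 95% CI −0.69 to −0.37, adjusted p = 9.11e-05). Bbc3 and Pmaip1, both p53 targets of the BH3-only class, thus lay on opposite sides of 0, and the reads of Bbc3 over those of Pmaip1 were 0.198, 0.157 and 0.239 in Rnf40+/+ and 0.429, 0.401 and 0.412 in Rnf40-/- libraries.

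Bid (ENSMUSG00000004446, chr6:120841948-120866871, minus strand) encodes the BH3-only protein that caspase-8 cleaves, which joins the death receptor arm to mitochondria. It was 685, 669 and 694 in Rnf40+/+ and 855, 830 and 833 in Rnf40-/- libraries. The spread within each genotype was small and the genotypes did not overlap. The means were 683 ± 12.7 and 839 ± 14.1 (n = 3 each, SD), with a log2 fold change of 0.30 (SE 0.07, 95% CI 0.14 to 0.45, adjusted p = 0.00474). Bid shares 913 bases with Bcl2l13 on the opposite strand, which rose as well (log2 fold change 0.49, adjusted p = 0.000437), and the part of shared reads in the rise of Bid was not tested.

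Bcl2l11 (ENSMUSG00000027381, chr2:127951774-127988283, plus strand) encodes BIM, which binds all guardians and activates the pore formers. It was 418, 452 and 533 in Rnf40+/+ and 572, 566 and 562 in Rnf40-/- libraries. The 3 Rnf40-/- libraries lay close together just above the highest Rnf40+/+ library. The means were 468 ± 59.4 and 566 ± 5.17 (n = 3 each, SD), with a log2 fold change of 0.28 (SE 0.10, 95% CI 0.07 to 0.50, adjusted p = 0.0337). This call was the least firm of the 8. It was lost without Rnf40+/+ replicate 1 (0.21, adjusted p = 0.114) or replicate 2 (0.26, adjusted p = 0.0928), and without Rnf40-/- replicate 1 (0.28, adjusted p = 0.0964), replicate 2 (0.28, adjusted p = 0.0833) or replicate 3 (0.29, adjusted p = 0.0754). It held without Rnf40+/+ replicate 3 (0.38, adjusted p = 0.00339).

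Bad (ENSMUSG00000024959, chr19:7016351-7026388, plus strand) encodes the BH3-only protein that growth factor signalling switches off by phosphorylation. It was 444, 543 and 609 in Rnf40+/+ and 536, 498 and 479 in Rnf40-/- libraries. The Rnf40-/- libraries all lay inside the range of the Rnf40+/+ libraries. The means were 532 ± 82.7 and 504 ± 29.4 (n = 3 each, SD), with a log2 fold change of −0.07 (SE 0.11, 95% CI −0.31 to 0.18, adjusted p = 0.661). Without Rnf40+/+ replicate 3 the sign changed (0.037, adjusted p = 0.801). Bad shares 590 bases with Gpr137 on the opposite strand, which fell (log2 fold change −0.39, adjusted p = 0.00702).

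**Figure D2:**
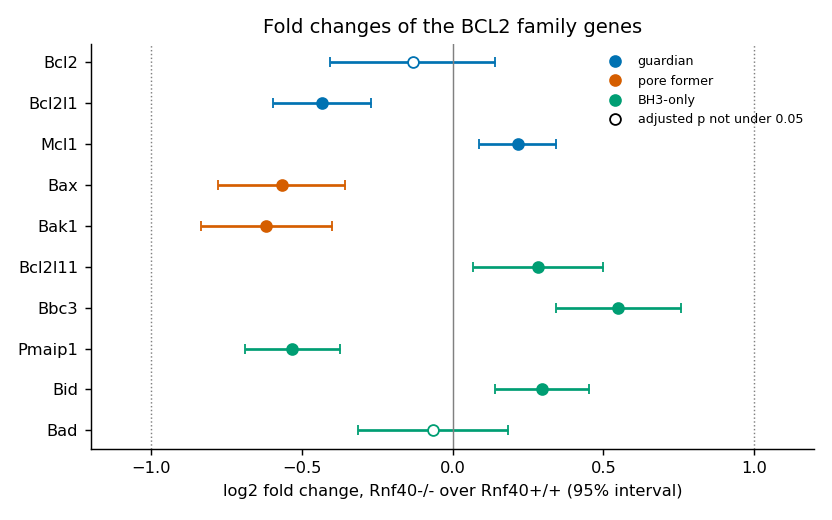
Log2 fold change of Rnf40-/- over Rnf40+/+ libraries (x axis) for the 10 genes grouped by role; points are limma estimates, bars are 95% confidence intervals, open points have an adjusted p of 0.05 or more, and dotted lines mark −1 and 1. The intervals of Bcl2 and Bad include 0; the pore formers lie left of 0, and guardians and BH3-only genes lie on both sides.

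To compare levels between genes, normalized counts were divided by the length in kilobases of the longest protein-coding transcript. On this scale of normalized count per kilobase, Bax was the most abundant of the 10 in both genotypes, at 4201 ± 619 in Rnf40+/+ and 2820 ± 206 in Rnf40-/- libraries (SD, n = 3 each). Mcl1 (1395 ± 20.2) and Pmaip1 (1361 ± 112) followed in Rnf40+/+ libraries with ranges that overlapped, then Bcl2l1 at 973 ± 78.6. Bak1 (476 ± 52.4) overlapped Bbc3 (389 ± 49.9), which overlapped Bad (366.5 ± 57.0), and Bid followed at 283 ± 5.26. Bcl2l11 (92.9 ± 11.8) and Bcl2 (37.5 ± 1.62) were the least abundant, and Bcl2 was the least abundant by far.

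In Rnf40-/- libraries the order changed in the middle. Mcl1 (1620 ± 46.1) now stood clear of Pmaip1 (940 ± 35.8), which stood above Bcl2l1 (719 ± 35.3). Bbc3, at 567 ± 15.5 per kilobase, stood above Bak1, at 309 ± 29.6, whereas in Rnf40+/+ libraries their ranges had overlapped with Bak1 the higher on average. Bid (347.5 ± 5.83) and Bad (347.5 ± 20.2) were level, and Bcl2l11 (112.5 ± 1.03) and Bcl2 (34.4 ± 5.18) stayed last. With the length of all annotated exons of each gene in place of 1 transcript, Bax was again first (3292 ± 485 and 2209 ± 162) and Bcl2 last (37.5 ± 1.62 and 34.4 ± 5.18), but the middle of the order depended on the length. Bcl2l1 was then 497 ± 40.1 in Rnf40+/+ libraries, where its range overlapped that of Bak1 (472 ± 51.9), and 367 ± 18 in Rnf40-/- libraries, below Bbc3 (512 ± 14). Bak1 and Bbc3 (352 ± 45.1) no longer overlapped in Rnf40+/+ libraries.

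Shares of the family within a library do not depend on the size factor. They do depend on each other, so a share can grow where another gene falls. Bax, with the largest share, was 4201 ± 619 and 2820 ± 206 per kilobase in Rnf40+/+ and Rnf40-/- libraries (SD, n = 3 each). A larger share of a role is therefore not a higher level of its genes. In level, Mcl1 rose and Bcl2l1 fell among the guardians. Among the BH3-only genes, Bbc3, Bid and Bcl2l11 rose and Pmaip1 fell. The pore formers held 48.7 ± 3.71% of the family's reads per kilobase in Rnf40+/+ and 40.0 ± 1.66% in Rnf40-/- libraries, the guardians 25.2 ± 2.18% and 30.4 ± 0.93%, and the BH3-only genes 26.1 ± 1.57% and 29.6 ± 0.80% (SD, n = 3 each). For each of the 3 roles the genotypes did not overlap, and the exact two-sided permutation test gave p = 0.1, the smallest that 3 against 3 libraries allow, so none of these shares could reach 0.05. Mcl1 took 14.6 ± 0.75% in Rnf40+/+ and 20.7 ± 1.02% in Rnf40-/- libraries, and Bbc3 took 4.06 ± 0.44% and 7.26 ± 0.07%. Bax took 43.7 ± 3.65% and 36.0 ± 1.42%. The shares of Bcl2l1 (10.2 ± 1.42% and 9.20 ± 0.13%) and Pmaip1 (14.3 ± 1.89% and 12 ± 0.49%) overlapped between genotypes, with exact permutation p of 0.4 and 0.2.

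**Figure D3:**
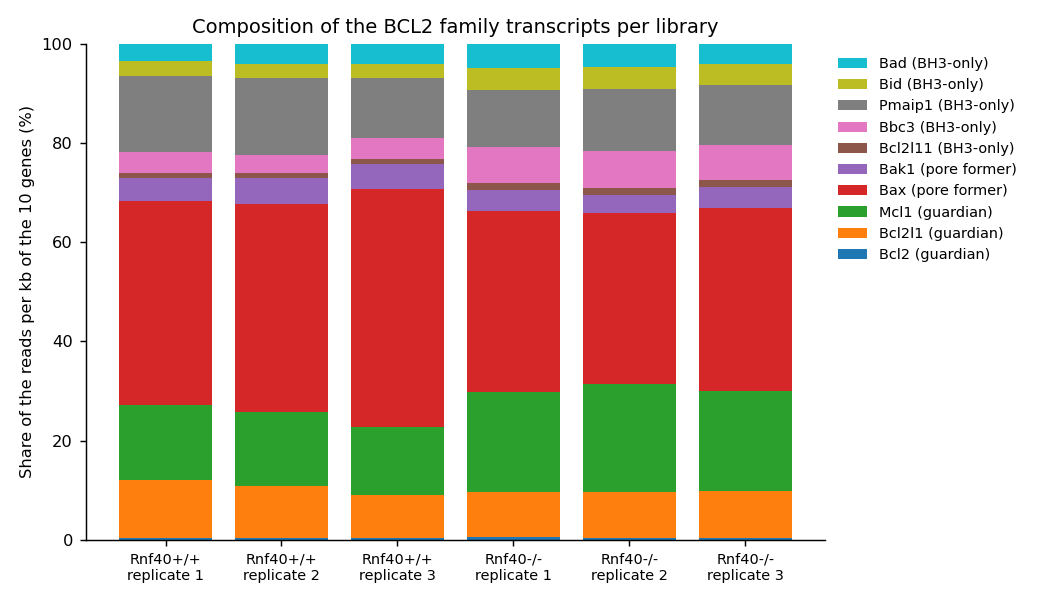
Share (percent, y axis) of each of the 10 genes in the family's summed reads per kilobase, as 1 stacked bar per library (x axis, 3 Rnf40+/+ and 3 Rnf40-/- libraries). The share of Mcl1 is larger and that of Bax smaller in every Rnf40-/- library.

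The log2 ratio of pore formers to guardians, from summed reads per kilobase, was 0.76, 0.88 and 1.21 in Rnf40+/+ and 0.45, 0.28 and 0.46 in Rnf40-/- libraries. The genotypes did not overlap, and the means differed by −0.55 (0.95 ± 0.23 and 0.40 ± 0.10, SD, n = 3 each; exact two-sided permutation p = 0.1). The ratio was highest in Rnf40+/+ replicate 3, and leaving out each library in turn gave differences from −0.65 to −0.42. The log2 ratio of BH3-only genes to guardians was −0.0040, 0.069 and 0.089 in Rnf40+/+ and −0.0092, −0.046 and −0.053 in Rnf40-/- libraries. The difference was −0.088 (exact two-sided permutation p = 0.1), with Rnf40+/+ replicate 1 next to the nearest Rnf40-/- library. Its size depended on the lengths used, at −0.17 with no length correction and −0.22 with the length of all annotated exons.

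Ratios of single genes were chosen after their values were seen and are given as a description, with no test. The reads of Mcl1 over those of Bcl2l1 were 1.88, 2.09 and 2.27 in Rnf40+/+ and 3.18, 3.46 and 3.11 in Rnf40-/- libraries. The reads of Mcl1 over those of Pmaip1, whose products bind each other, were 1.31, 1.27 and 1.49 in Rnf40+/+ and 2.29, 2.30 and 2.22 in Rnf40-/- libraries. The reads of Bcl2l11 over those of Bcl2l1, another such pair, were 0.164, 0.192 and 0.247 in Rnf40+/+ and 0.333, 0.339 and 0.307 in Rnf40-/- libraries.

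Beside the counts of each list below, 23.3% of all genes tested rose and 24.1% fell, with a median log2 fold change of −0.0035. Among 10 other BCL2 family genes, 4 had enough reads to be tested, of which 2 fell and the other 2 did not pass. Bok, a further relative of Bax and Bak1, was 508, 492 and 513 in Rnf40+/+ and 167, 167 and 195 in Rnf40-/- libraries. Its Rnf40-/- mean was 35.0% of the Rnf40+/+ mean, and its log2 fold change of −1.51 (SE 0.11, adjusted p = 4.67e-07) was larger in size than that of any of the 10 members. Bcl2l2, which encodes the guardian BCL-W, was 2182 ± 53 in Rnf40+/+ and 1916 ± 80.5 in Rnf40-/- libraries (n = 3 each, SD), with a log2 fold change of −0.19 (SE 0.06, adjusted p = 0.0288). That call was lost without Rnf40+/+ replicate 2 (adjusted p = 0.0634), Rnf40-/- replicate 1 (adjusted p = 0.106) or Rnf40-/- replicate 3 (adjusted p = 0.0997).

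Bmf, a BH3-only gene tied to the cytoskeleton, had a log2 fold change of 0.04 (adjusted p = 0.91). Bcl2a1b, a guardian gene known from blood cells, was 11.9, 13.3 and 60.7 in Rnf40+/+ and 10.2, 9.39 and 11.3 in Rnf40-/- libraries, so that 1 library carried the difference (log2 fold change −0.996, adjusted p = 0.154). The macrophage gene Lyz2 was highest in that same Rnf40+/+ replicate 3, at 7440.3 against 3945 and 4557 in the other 2 Rnf40+/+ libraries. Among Rnf40+/+ libraries, the macrophage markers Ptprc, Emr1, Csf1r and Cd68 were also highest in replicate 3. Itgam was highest in replicate 1 instead, and Cd14 in replicate 2. The part of macrophages in the value of Bcl2a1b was not tested. The Bcl2a1 genes are near-identical copies, so reads may be divided among them uncertainly. Bcl2a1a, Bcl2a1d, Bik and Hrk were too low to test, and Bcl2a1c and Bcl2l10 had under 3 reads in every library.

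Of 8 BCL2-related genes tested, from a list of 9, 3 rose and 3 fell. Bcl2l15 was 8.36, 5.10 and 6.39 in Rnf40+/+ and 45.9, 82.5 and 89.7 in Rnf40-/- libraries, a log2 fold change of 3.24 (SE 0.35, adjusted p = 1.48e-05) that was the largest of any gene on these lists and rests on 5 to 95 reads per library. Bnip3l, a receptor for removal of mitochondria, rose (0.52, adjusted p = 0.000104), and so did the related Bcl2l13 (0.49). Bnip1 fell (−0.52, adjusted p = 0.0377), but its call was lost without any 1 of Rnf40+/+ replicates 2 and 3 or Rnf40-/- replicates 1, 2 and 3 (adjusted p between 0.0605 and 0.14), with an estimate of −0.32 without Rnf40+/+ replicate 3.

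Downstream of the pore, 2 of 13 genes of the apoptosome and the caspases rose and 5 fell, beside 23.3% and 24.1% of all genes tested. Apaf1, the scaffold of the apoptosome, rose from 1337 ± 50.9 to 2055 ± 89.5 (SD, n = 3 each), by 0.62 on the log2 scale (SE 0.07, adjusted p = 1.41e-05). The genes for proteins that leave the mitochondrion and act on DNA, Endog (−0.96, adjusted p = 0.00136) and Aifm1 (−0.42, adjusted p = 0.000911), fell. The list as a whole had a median log2 fold change of −0.061, beside −0.0035 for all genes tested.

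In the death receptor arm, 1 of 8 genes rose and 3 fell. Casp8, whose product cleaves BID, fell (−0.41, adjusted p = 0.00134), as did its inhibitor Cflar (−0.38, adjusted p = 0.000876) and the receptor Tnfrsf1a (−0.29, adjusted p = 0.00606). Ripk1, the kinase of the same receptor complex, rose (0.37, adjusted p = 0.00182). Of 6 genes for partners at the mitochondrial membranes, 3 rose and the other 3 did not pass. Vdac1, the main channel of the outer membrane, rose from 7166 ± 187 to 10664 ± 197 (log2 fold change 0.57, adjusted p = 1.1e-05), Opa1, which shapes the inner membrane, rose by 0.38 on the log2 scale (adjusted p = 0.00404), and Dnm1l, which divides mitochondria, by 0.21 (adjusted p = 0.0401). The call for Dnm1l was lost with no filter on low counts (adjusted p = 0.0513) and without any 1 of Rnf40+/+ replicate 3 or Rnf40-/- replicates 1, 2 and 3 (adjusted p between 0.0652 and 0.162).

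**Figure D4:**
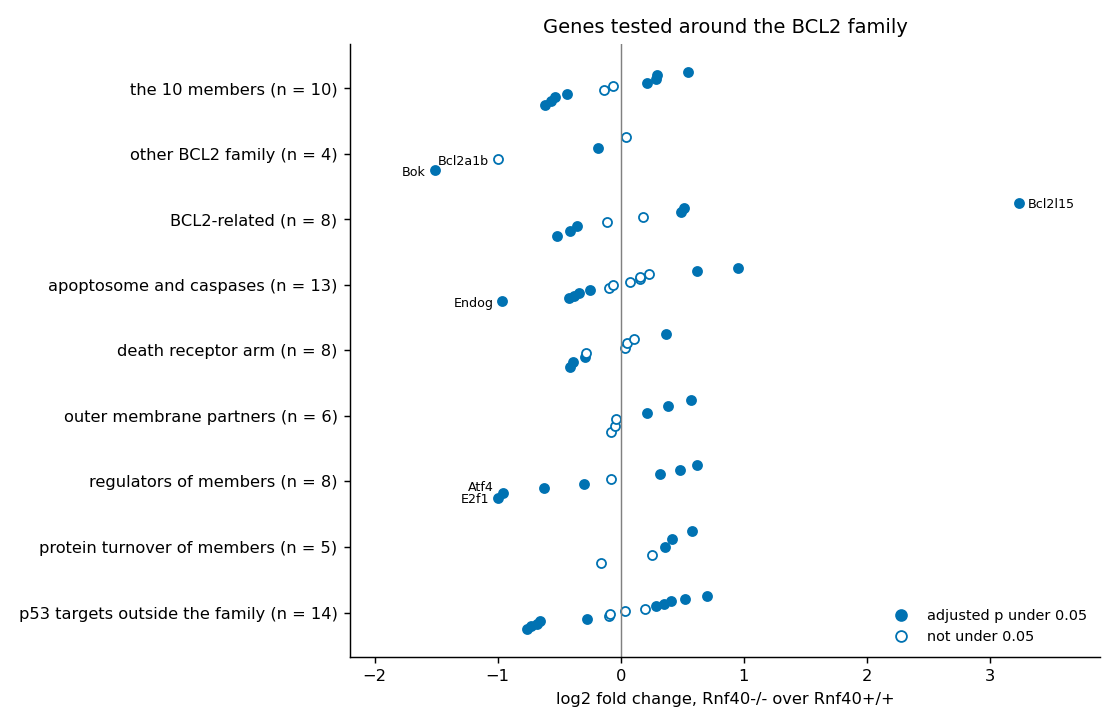
Log2 fold change of Rnf40-/- over Rnf40+/+ libraries (x axis) of the 10 members and of the tested genes of 8 lists around them (y axis, number tested in brackets); filled points have an adjusted p under 0.05 by limma. Genes lie on both sides of 0 in most lists, with Bcl2l15 far to the right and Bok far to the left.

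Among transcription factors known to regulate the members, 8 of 9 were tested, 3 rose and 4 fell, and Trp73 had under 3 reads in every library. E2f1, the cell cycle factor, fell, with a log2 fold change of −0.997 (adjusted p = 7.11e-06). Atf4, the factor of the integrated stress response, was 7388 ± 178 in Rnf40+/+ and 3795 ± 103 in Rnf40-/- libraries (n = 3 each, SD), with a log2 fold change of −0.96 (SE 0.06, adjusted p = 1.89e-07). Ddit3, a target of ATF4 that regulates Bcl2l11 and Bbc3, was 1649, 1672 and 2812 in Rnf40+/+ and 1274, 1230 and 1361 in Rnf40-/- libraries, a log2 fold change of −0.62 (adjusted p = 0.00729) that was −0.37 (adjusted p = 0.000861) without Rnf40+/+ replicate 3. Myc rose (0.62, adjusted p = 4.72e-05). Trp53, which encodes p53, was not past the threshold (−0.08, adjusted p = 0.318).

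The 14 p53 targets outside the family lay on both sides of 0, with 5 that rose, 5 that fell and a median log2 fold change of −0.028. Gtse1 (−0.76), the receptor gene Eda2r (−0.73) and Zmat3 (−0.68) fell, and Trp53inp1 rose (0.70). Of 5 genes for enzymes that control the stability of MCL1 and other members, 3 rose and the other 2 did not pass. Huwe1, a ubiquitin ligase for MCL1, rose (0.58, adjusted p = 0.0002), as did Usp9x, the deubiquitinase that stabilizes MCL1 (0.36, adjusted p = 0.000733). Fbxo7 rose too (0.42, adjusted p = 0.0156), with the call lost without Rnf40+/+ replicate 1 or Rnf40-/- replicates 2 or 3 (adjusted p between 0.0507 and 0.0726). Over all 8 lists, 66 of 74 genes were tested, 20 rose and 22 fell, with a median log2 fold change of −0.044. Of all genes tested, 23.3% rose and 24.1% fell, with a median log2 fold change of −0.0035.

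The labelled cell type was checked against marker genes, and in bulk samples fewer cells of a type and less RNA per cell cannot be told apart. The 9 fibroblast markers were abundant in every library, with summed normalized counts from 354316 to 413828 in Rnf40+/+ and from 185357 to 199435 in Rnf40-/- libraries, and 7 of the 9 fell, Col1a1 (−0.80) and Vim (−0.26) among them. The 4 markers of proliferating cells all fell, from sums of 2594 to 3276 to sums of 379 to 473, with Top2a at −3.20 and Cdk1 at −2.05 on the log2 scale. Macrophage markers were present at sums from 5387 to 9132 in Rnf40+/+ and from 3518 to 3854 in Rnf40-/- libraries (7 genes, 2 rose and 1 fell). Lyz2, the most abundant of them, fell (−1.18), Ptprc (1.37, adjusted p = 0.00012) and Cd14 (0.66, adjusted p = 0.00316) rose, both named after their values were seen, and Csf1r had a log2 fold change of −0.21 (adjusted p = 0.212). Endothelial markers were low, at sums from 138 to 279 and from 225 to 315 (5 genes, 3 rose and 1 fell), with Kdr at 1.56 and Emcn at −1.15. Pecam1 (2.58) and Cdh5 (3.26) rose too, on 3 to 34 and 1 to 38 reads per library. Tek was 115 in Rnf40+/+ replicate 1 against 11.2 and 16.0 in replicates 2 and 3. These 3 were named after their values were seen. Epithelial markers were lower still, at sums from 30.6 to 93.2 and from 34.9 to 54.0 (2 of 5 had enough reads to be tested and did not pass). The fibroblast, macrophage and proliferation sums did not overlap between genotypes, whereas the endothelial and epithelial sums did. Lyz2 alone, at 5314 ± 1867 in Rnf40+/+ and 2264 ± 152 in Rnf40-/- libraries (SD, n = 3 each), made up most of the macrophage sum. Of the other macrophage markers, Ptprc and Cd14 rose and Emr1, Csf1r, Cd68 and Itgam did not pass. The lower sum is thus not a fall of the macrophage markers in general. The part of these cell types in the changes of the BCL2 family genes was not tested.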

How the data were processed

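RNA-seq libraries of 3 Rnf40+/+ and 3 Rnf40-/- MEF samples were analysed from the table of gene values that the authors deposited. Per the methods and the labels, directional libraries were mapped to the mouse reference transcriptome (mm9). The submitters' processing notes name Bowtie2 (2.1.0) and DESeq (1.14.0), while the counting tool and its strand setting are not given in the sources used here. The deposited values are a signal, read counts that the authors divided by 1 DESeq size factor per library. Whole reads were recovered in all libraries (100% of values within a tolerance of 0.1).

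Genes were kept by filterByExpr of edgeR (4.0.16) on the recovered reads and tested with limma (3.58.1, lmFit and eBayes with a trend, R 4.3.3) on log2(normalized count + 1), with no term but genotype and with Benjamini-Hochberg adjustment. The test was checked on simulated data with the same dispersion for every gene and with larger changes than those of the 10 members. That check does not cover changes as small as theirs. Lengths, positions and BH3 sequences were taken from GENCODE vM1 (NCBIM37, the same build as mm9), and Tigar was matched through a synonym. The members and gene lists were chosen with earlier results of these data known. Named were all 10 members, Rnf40, the other BCL2 family genes, up to 4 genes with the largest change among those called in every other list, genes under 3 reads everywhere, and up to 2 markers per cell type with the most reads. Genes that overlap a member, Trp53, the pair ratios and further macrophage and endothelial markers were added after values were seen. 1 gene that the rule names is not reported here. ChIP data of the series were not analysed here.

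Alternatives were pseudocounts of 0.1 and 10, other filters, DESeq2 (1.42.0) size factors, TMM and upper-quartile scaling, edgeR and DESeq2 tests on recovered reads, a replicate block, leaving out each library, and other lengths. Intervals and p-values do not cover library preparation.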

Additional observations from a re-analysis of the deposited data

How the results depend on the processing

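Over 16 alternatives for each of the 10 members, 154 of 160 values kept their direction and side of the threshold. The exceptions were Bcl2l11, which lost its call when any 1 of 5 libraries was left out (adjusted p between 0.0754 and 0.114), and Bad, whose log2 fold change ranged from −0.19 to 0.037 over the 6 fits that left out a library, with 0.037 without Rnf40+/+ replicate 3. Leaving out each library gave 3 to 4 members called higher, 4 called lower in each case, and 0 past the criteria of the study. Among other genes of the pathway, 17 to 22 were called higher and 18 to 22 lower, and among all genes 6365 to 7647 were called. The difference in log2 ratio of pore formers over guardians ran from −0.65 to −0.42 and that of BH3-only genes over guardians from −0.115 to −0.069. The second difference was −0.17 with no length correction and −0.22 with the length of all annotated exons, an alternative chosen after seeing the data. Its size thus depends on the lengths used, while its sign did not change under these alternatives. None of them left Pmaip1, the most abundant BH3-only gene, out of the sum. Of the 42 other pathway genes called, 33 kept their call under all 16 alternatives and 8 of the other 9 lost it only where a library was left out.

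With the replicate number as a replicate block, 4 members were called higher and 4 lower, and 8217 genes were called in all. Same-numbered libraries did not deviate together (correlations 0.012, 0.017 and 0.021), no library correlated best with the one of its own number, and the numbers were not taken to pair the samples. With 3 libraries per genotype the exact permutation tests could not go below 0.1, and a change of Bcl2 or Bad inside the intervals given could not be detected.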
